A study of Homo sapiens with 6 samples.

Results

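The ISWI remodelers are a set of 10 genes taken by name from the gene tables: the ATPase genes SMARCA5 and SMARCA1, and RSF1, BAZ1A, BAZ1B, BAZ2A, BAZ2B, BPTF, CECR2 and POLE3, which code for proteins that join these ATPases in complexes. All 10 were found among the 57820 genes listed, and all 10 passed the filter on low counts that left 19599 genes tested. RNA-seq was done on 3 WT and 3 ARID1A-KO samples of AID-DIvA cells, with replicates numbered 3, 4 and 5 in each genotype. AID-DIvA cells are U2OS osteosarcoma cells with an integrated vector for the nuclease AsiSI, which cuts the genome only after 4-hydroxytamoxifen is given. Every sample of both genotypes was untreated, so all of them carried the AsiSI vector with the nuclease not induced. ARID1A codes for a DNA-binding subunit of the BAF (SWI/SNF) remodeler and was knocked out with Cas9 and guide RNAs to its coding sequence. Knockout clones were established, and which of them was sequenced is not given in the sources used here, so all ARID1A-KO samples may descend from 1 clone. The study describes its data of this kind as coming from independent biological replicates, while the labels give only replicate numbers, and the p-values measure the spread between these samples. The question put to the members was whether the transcript levels of this second remodeler family differed between WT and ARID1A-KO cells before any damage was induced.

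ISWI remodelers slide and space nucleosomes with an ATPase of the SNF2 family, and the partner decides which complex is formed and where it works. SMARCA5 forms RSF with RSF1, ACF and CHRAC with BAZ1A, WICH with BAZ1B and NoRC with BAZ2A, whereas SMARCA1 is best known from NURF, with BPTF, and CERF, with CECR2. The complexes are known for nucleosome assembly behind replication forks, silencing of ribosomal DNA, transcription control and the response to DNA double-strand breaks.

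ARID1A itself had 173 ± 6.67 CPM (counts scaled to the library size, normalized by TMM) in WT and 25.9 ± 1.38 CPM in ARID1A-KO cells (SD, n = 3 each), in accord with the labels. Total counts on genes ranged from 54512105 to 84088708 per sample. The first principal component held 75.1% of the variance and separated the genotypes, and the second held 11.1% and set WT replicate 4 and ARID1A-KO replicate 5 apart from the other samples of their genotype, at -27.97 and 32.1. The cell type was checked with markers. Of 9 bone markers, 6 were tested, and ALPL, SPP1, SPARC and COL1A1 were lower in ARID1A-KO cells by edgeR's quasi-likelihood test, while SP7, BGLAP and IBSP had at most 12 reads in any sample. RUNX2 (log2 fold change -0.03) and COL1A2 (-0.46) did not pass. The summed level of the bone markers was 1235 to 1294 CPM in WT and 726 to 809 CPM in ARID1A-KO samples, and that of the mesenchymal markers was 2845 to 3572 and 4491 to 5355 CPM. Of these, VIM was higher (log2 fold change 0.84) and CDH2 lower (-0.72) in ARID1A-KO cells by edgeR's quasi-likelihood test, and FN1 did not pass (-0.19). The epithelial markers summed to 721 to 835 CPM in WT and 492 to 514 CPM in ARID1A-KO samples, nearly all of it KRT8 and KRT18. By edgeR's quasi-likelihood test, KRT8, KRT18 and CDH1 were lower in ARID1A-KO cells, whereas EPCAM was higher (log2 fold change 0.44). The blood markers CD3E and HBB had at most 1 read, PTPRC had at most 165, and the endothelial marker CDH5 had at most 35. PTPRC was lower in ARID1A-KO cells (log2 fold change -2.10) by edgeR's quasi-likelihood test. The part of these marker differences in the results below was not tested. In bulk RNA, fewer cells with a transcript and less transcript per cell cannot be told apart.

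Among the 10 ISWI remodelers, SMARCA5, BAZ2B and RSF1 fell in ARID1A-KO cells and none rose, at a Benjamini-Hochberg adjusted p under 0.05 over all genes tested in edgeR's quasi-likelihood test. SMARCA5 was at 68.2%, BAZ2B at 69.6% and RSF1 at 85.7% of the WT level. The other 7 members did not pass the test. Thus 3 of 10 members were called, beside 36.2% of all genes tested in either direction, 18.4% lower and 17.8% higher. The CPM of the 2 genotypes did not overlap for the same 3 members, beside 49.5% of all genes tested. The median log2 fold change was 0.01 for the members and 0.01 for all genes tested. Its median size, without the sign, was 0.11 for the members and 0.27 for all genes tested. The share of members called in either direction was thus close to that of all genes, and the typical change of a member was smaller. This was not particular to the members, since the median size was 0.10 for 24 ATPase genes of other SNF2-family remodelers. It was 0.31 for 5 further subunits of ISWI complexes. The members and all genes tested were not matched for level.

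**Figure D1:**
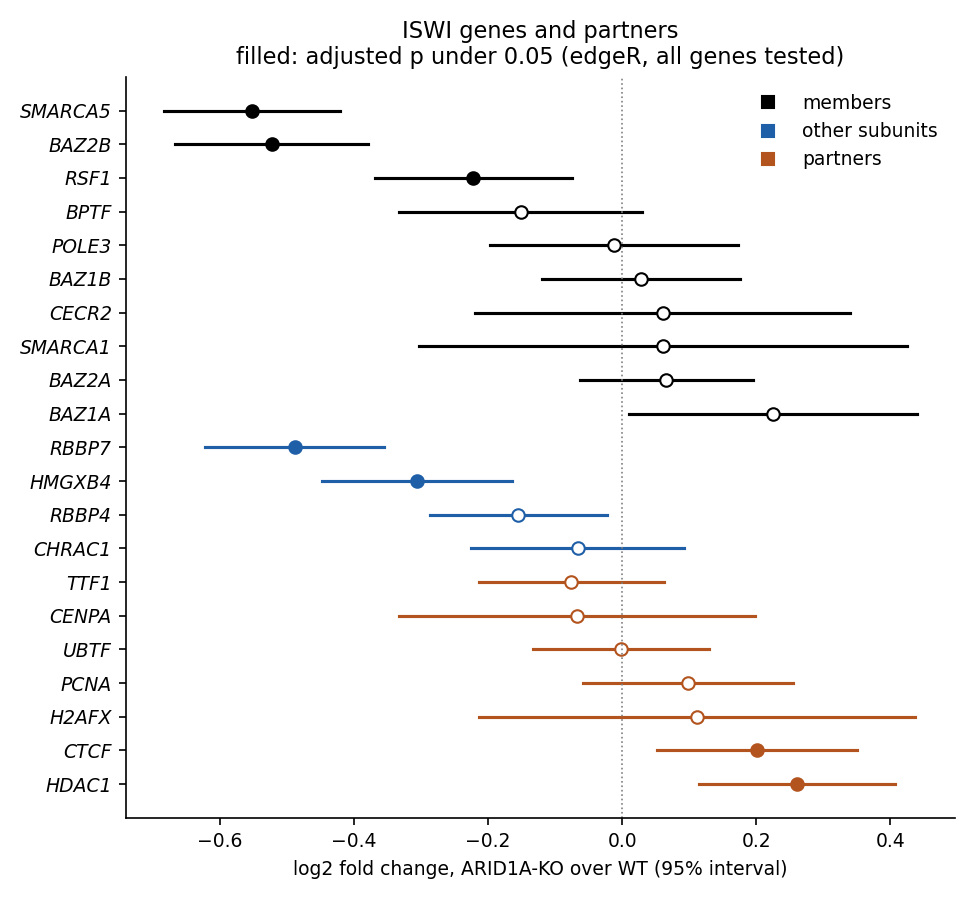
The log2 fold change of ARID1A-KO over WT (x axis) for the 10 members, other ISWI subunits and partner proteins (y axis, 1 gene a line), with points for the estimate, bars for its 95% interval and filled points for an adjusted p under 0.05. SMARCA5 (-0.55) and BAZ2B (-0.52) lie farthest to the left of the members, RSF1 (-0.22) is the third filled one, and the bars of SMARCA1 (-0.30 to 0.42) and CECR2 (-0.22 to 0.34) are the widest among the members. C17orf49, which stayed under 1 CPM, is not drawn.

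SMARCA5 is the catalytic subunit that most human ISWI complexes share. It had 169, 155 and 164 CPM in WT replicates 3, 4 and 5, and 112, 113 and 109 CPM in ARID1A-KO replicates 3, 4 and 5. Every ARID1A-KO sample was below every WT sample, with a gap between the genotypes wider than the spread within either. On the log2 scale, SMARCA5 fell by 0.55 (SE 0.058, adjusted p = 0.000115 in edgeR's quasi-likelihood test). Leaving out any 1 sample gave values from -0.59 to -0.53 and kept the call. SMARCA5 (ENSG00000153147.5) lies on chromosome 4 of GRCh37 from 144434616 to 144478639 on the plus strand.

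The genes around SMARCA5 were lower as well. Among 51 tested neighbours up to 5 Mb away, 35 had a negative log2 fold change and 25 were called lower, with 10 called higher and a median of -0.53. The log2 fold change of SMARCA5 was thus close to the median of its surroundings. When this median was taken off in the fit, SMARCA5 was left with -0.02 (SE 0.058, adjusted p = 0.779, quasi-likelihood test of edgeR), so the call ended. Here and below, such a median was taken off as a fixed value, so the SE and adjusted p leave out its own uncertainty. The 27 neighbours at lower coordinates had a median of -0.58, and 24 of them were negative. At higher coordinates, the 8 genes up to 1.5 Mb away had a median of -0.95, and the 16 genes farther away had a median of 0.57, with 8 called higher and 0 called lower. Some of the 8 nearer genes had very low levels, down to a log2 mean CPM of -3.11. Those of the 8 with a mean over 2 CPM went in both directions, from -1.28 (HHIP) to 0.88 (GYPE), so the median of -0.95 does not describe them. The distance of 1.5 Mb was chosen after the values were seen. Among the 36 neighbours with a mean over 2 CPM, the median was -0.40. The part of the surroundings in the change of SMARCA5 was not tested beyond this.

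SMARCA1 codes for the second ISWI ATPase, a close paralog of SMARCA5. It had 50.6, 35.0 and 47.8 CPM in WT replicates 3, 4 and 5, and 41.8, 40.1 and 57.1 CPM in ARID1A-KO replicates 3, 4 and 5. The lowest value was that of WT replicate 4 and the highest that of ARID1A-KO replicate 5, and the genotypes overlapped. SMARCA1 had the widest spread of the members, with a coefficient of variation of 18.7% in WT and 20.2% in ARID1A-KO cells, where that of SMARCA5 was 4.27% and 1.84%. Its log2 fold change was 0.06 (95% interval -0.30 to 0.42, adjusted p = 0.802, edgeR's quasi-likelihood test), so a moderate change in either direction was not excluded by its interval. WT replicate 4 and ARID1A-KO replicate 5 are also the samples that stood apart on the second principal component. Without these, a choice made after the values were seen, SMARCA1 had a log2 fold change of -0.27 (adjusted p = 0.0146 in edgeR's quasi-likelihood test), the opposite direction. The direction also turned when only WT replicate 4 (-0.09) or only ARID1A-KO replicate 5 (-0.12) was left out.

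Per length of exons, SMARCA5 had 63.8 ± 3.25 TPM and SMARCA1 had 35.6 ± 6.89 TPM in WT (SD, n = 3). In ARID1A-KO cells, SMARCA5 had 43.3 ± 1.03 TPM and SMARCA1 had 37.1 ± 8.69 TPM (SD, n = 3). SMARCA5 thus made 62.0%, 68.5% and 62.7% of the ATPase transcripts, the sum of SMARCA5 and SMARCA1, in the WT samples and 56.7%, 57.9% and 48.3% in the ARID1A-KO samples. The genotypes did not overlap in this share, and in ARID1A-KO replicate 5 alone SMARCA1 had the higher TPM. In that sample SMARCA5 had 109 CPM and SMARCA1 had 57.1 CPM, so this order and the shares depend on the exon lengths used. The mean share was 64.4% ± 3.55 in WT and 54.3% ± 5.25 in ARID1A-KO cells, a difference of -10.12 percentage points (exact permutation test, two-sided, p = 0.1, the smallest that 3 samples against 3 allow). The summed TPM of both ATPases was 99.5 ± 10.03 in WT and 80.4 ± 9.25 in ARID1A-KO cells, with an overlap of the genotypes (exact permutation test, two-sided, p = 0.2).

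RSF1 is the histone chaperone subunit that pairs with SMARCA5 in the remodeling and spacing factor. It had 68.7, 64.6 and 62.5 CPM in WT replicates 3, 4 and 5, and 56.1, 53.2 and 58.5 CPM in ARID1A-KO replicates 3, 4 and 5. All ARID1A-KO samples were below all WT samples, but the nearest samples of the genotypes, WT replicate 5 and ARID1A-KO replicate 5, differed by less than the range of the WT samples. For RSF1, the log2 fold change was -0.22 (SE 0.065, adjusted p = 0.0253, edgeR's quasi-likelihood test). This call was lost when WT replicate 3, ARID1A-KO replicate 3 or ARID1A-KO replicate 4 was left out. The log2 fold change stayed at -0.22 without ARID1A-KO replicate 3. The adjusted p was 0.0729 without WT replicate 3. It was 0.0722 when ARID1A-KO replicate 3 was left out and 0.122 when replicate 4 of that genotype was, with the log2 fold change between -0.26 and -0.19 over all samples left out in turn.

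RSF1 (ENSG00000048649.9) lies on chromosome 11 of GRCh37 from 77371041 to 77532063 on the minus strand. Its surroundings did not move with it, since 37 of its 77 tested neighbours up to 5 Mb away had a negative log2 fold change and their median was 0.01. With that median taken off, RSF1 had -0.23 (adjusted p = 0.0262, edgeR's quasi-likelihood test). On the same strand, RSF1 overlaps the pseudogene FTH1P16, which had a mean of 25.2 reads, and AP000580.1, with 34.2 reads, beside at least 2922 reads for RSF1 in every sample.

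**Figure D2:**
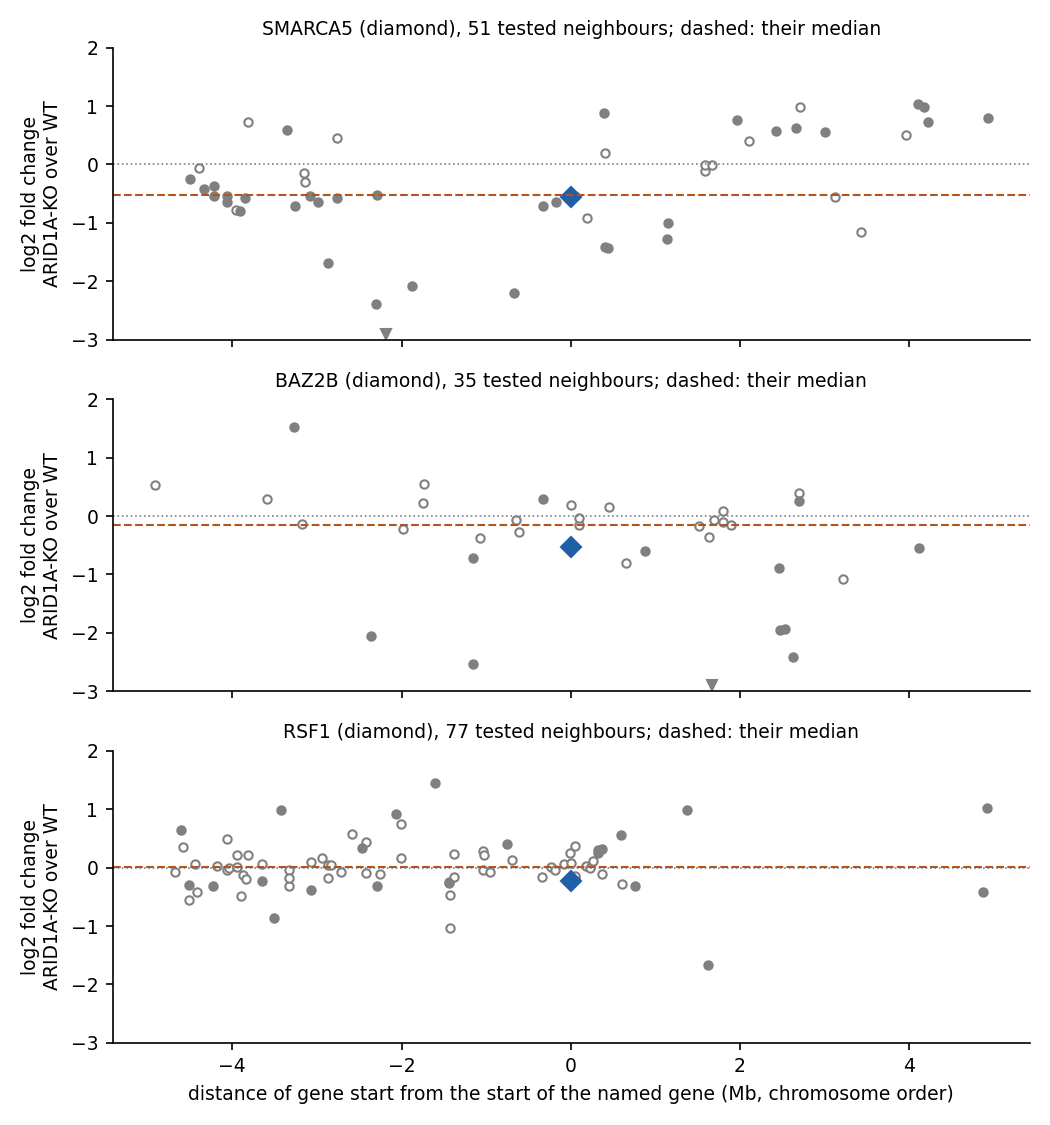
The log2 fold change of ARID1A-KO over WT (y axis) of SMARCA5, BAZ2B and RSF1 (diamonds) and of the other genes tested within 5 Mb (circles, filled for an adjusted p under 0.05), by distance between gene starts in Mb (x axis); triangles mark values under -3 and the dashed line is the neighbours' median. SMARCA5 sits on its line at -0.53, BAZ2B lies below its line at -0.15 and RSF1 below its line at 0.01.

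The promoters of the 3 members that fell, and of the paralog SMARCA1 for comparison, are printed here to show which sequence features they share. Each is 300 bases from RefSeq (GRCh38.p14), 250 before and 50 after a start site, and was placed in GRCh37 by an exact match. Where a gene had several windows, the one nearest to the start of the gene in the deposited tables was taken. They lie at chr4:144434605-144434904 (plus strand, SMARCA5), chrX:128657418-128657717 (minus strand, SMARCA1), chr11:77531719-77532018 (minus strand, RSF1) and chr2:160472027-160472326 (minus strand, BAZ2B). Each is written 5′ to 3′ on the strand of its gene, and capitals mark the motifs found.
SMARCA5: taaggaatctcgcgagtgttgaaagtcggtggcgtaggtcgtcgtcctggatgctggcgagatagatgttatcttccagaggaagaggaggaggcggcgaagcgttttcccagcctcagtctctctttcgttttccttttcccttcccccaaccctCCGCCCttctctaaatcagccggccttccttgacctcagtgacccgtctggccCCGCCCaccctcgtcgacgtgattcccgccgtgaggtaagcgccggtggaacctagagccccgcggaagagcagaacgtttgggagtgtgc
SMARCA1: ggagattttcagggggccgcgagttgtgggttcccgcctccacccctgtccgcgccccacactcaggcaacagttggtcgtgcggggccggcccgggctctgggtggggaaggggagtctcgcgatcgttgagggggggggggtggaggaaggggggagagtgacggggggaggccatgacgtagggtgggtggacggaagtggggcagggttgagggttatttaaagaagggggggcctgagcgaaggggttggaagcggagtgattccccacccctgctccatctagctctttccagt
RSF1: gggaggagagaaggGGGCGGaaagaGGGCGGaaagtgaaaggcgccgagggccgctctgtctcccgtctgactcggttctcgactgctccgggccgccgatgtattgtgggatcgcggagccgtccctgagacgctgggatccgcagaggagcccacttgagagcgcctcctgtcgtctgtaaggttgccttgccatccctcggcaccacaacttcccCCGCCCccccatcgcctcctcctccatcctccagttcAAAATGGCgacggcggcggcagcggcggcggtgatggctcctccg
BAZ2B: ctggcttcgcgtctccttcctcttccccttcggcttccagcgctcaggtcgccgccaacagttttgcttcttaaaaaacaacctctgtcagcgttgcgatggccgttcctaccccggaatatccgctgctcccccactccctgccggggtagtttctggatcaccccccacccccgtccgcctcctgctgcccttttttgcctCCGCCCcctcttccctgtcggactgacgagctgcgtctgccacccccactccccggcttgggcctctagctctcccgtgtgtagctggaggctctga

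The letters searched on both strands were the GC box GGGCGG, the CCAAT box CCAAT, the ETS motif CCGGAAG, the AP-1 motif TGANTCA, the TATA box TATAAA, the E-box CACGTG and the YY1 motif AANATGGC. The RSF1 window held 3 GC boxes and 1 YY1 match, the SMARCA5 window 2 GC boxes and the BAZ2B window 1 GC box, whereas the SMARCA1 window held none of the motifs. All 3 members that fell thus had a GC box, but so did 6 of the 8 members with a window and 45.0% of all 35116 windows, so this sets the 3 apart from neither. The counts for members are over the window nearest to the deposited gene start, 1 a gene, and BAZ1A and BPTF had no window. On this basis the YY1 motif was found in no other member, beside 6.58% of all windows, although a second window of BAZ2A held 1 match. The CCAAT box was found in 34.6% of windows and in 1 member, BAZ1B. The ETS (10.3% of windows), AP-1 (7.71%), TATA (11.5%) and E-box (7.26%) motifs were found in none of these nearest windows, and another window of POLE3 held 1 E-box. The windows of RSF1, SMARCA5, BAZ2B and SMARCA1 held 29, 25, 20 and 17 CpG dinucleotides, all above the median of 14 over all windows. The start sites of RSF1, SMARCA5 and BAZ2B in these windows lay 295, 239 and 1127 bases downstream of the gene start in the deposited tables. A second window of BAZ2B, with its start site 95750 bases from that gene start, held 2 GC boxes and 31 CpG dinucleotides.

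Of the 4 BAZ genes, which code for large subunits with a bromodomain and a PHD finger, BAZ2B fell and the others did not pass the test. BAZ2B is a paralog of the NoRC subunit BAZ2A. It had 44.2, 45.2 and 41.7 CPM in WT replicates 3, 4 and 5, and 31.2, 29.5 and 30.5 CPM in ARID1A-KO replicates 3, 4 and 5. The genotypes did not overlap, and the highest ARID1A-KO sample stayed well below the lowest WT sample. BAZ2B changed by -0.52 on the log2 scale (SE 0.064, adjusted p = 0.000262, edgeR's quasi-likelihood test), and this stayed between -0.56 and -0.50 and was called with each sample left out in turn.

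BAZ2B (ENSG00000123636.13) lies on chromosome 2 of GRCh37 from 160175490 to 160473203 on the minus strand. Among its 35 tested neighbours up to 5 Mb away, 24 had a negative log2 fold change, 10 were called lower and 3 higher, and their median was -0.15. With this median taken off, BAZ2B was still called, at -0.37 (adjusted p = 0.00229, edgeR's quasi-likelihood test). AC009506.1 overlaps BAZ2B on the opposite strand with a mean of 170.5 reads, and the counts used here keep the strands apart. Reads on the forward strand of BAZ2B came to 3.83% of its counts and had a log2 fold change of 0.09 (adjusted p = 0.792, edgeR's quasi-likelihood test).

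BAZ2A codes for the subunit that directs NoRC to ribosomal DNA and was among the steadiest members. It had 165, 172 and 172 CPM in WT replicates 3, 4 and 5, and 179, 184 and 171 CPM in ARID1A-KO replicates 3, 4 and 5. ARID1A-KO replicate 5 fell among the WT samples, and the log2 fold change was 0.07 (95% interval -0.06 to 0.19, adjusted p = 0.405, edgeR's quasi-likelihood test).

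BAZ1A codes for the partner of SMARCA5 in ACF and CHRAC, which space nucleosomes evenly. It had 68.3, 75.6 and 65.9 CPM in WT replicates 3, 4 and 5, and 91.4, 82.8 and 71.1 CPM in ARID1A-KO replicates 3, 4 and 5. ARID1A-KO replicates 3 and 4 were above all WT samples, and ARID1A-KO replicate 5 lay within the WT range. BAZ1A had a log2 fold change of 0.22 (SE 0.095, 95% interval 0.01 to 0.44), and its adjusted p, 0.095 in edgeR's quasi-likelihood test, missed the threshold. The call was gained without ARID1A-KO replicate 5 (0.32, adjusted p = 0.0138, edgeR's quasi-likelihood test), and without WT replicate 4 and ARID1A-KO replicate 5 together (0.38, adjusted p = 0.00317). It was also gained with no filter on low counts (adjusted p = 0.0288) and with the replicate block (adjusted p = 0.047). Leaving out any other 1 sample gave no call, down to 0.14 without ARID1A-KO replicate 3 (adjusted p = 0.307, edgeR's quasi-likelihood test). By the same test, BAZ1A was not called with counts without regard to strand (0.21, adjusted p = 0.136). Nor was it called with the median of its neighbours within 5 Mb taken off (0.15, adjusted p = 0.265).

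BAZ1B codes for the WICH subunit, which also phosphorylates the histone variant H2AX. It had 276, 251 and 255 CPM in WT replicates 3, 4 and 5, and 277, 266 and 252 CPM in ARID1A-KO replicates 3, 4 and 5. The ranges nearly coincided, and the log2 fold change was 0.03 (95% interval -0.12 to 0.18, adjusted p = 0.774, edgeR's quasi-likelihood test).

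BPTF codes for the largest subunit of NURF, which reads methylated histone H3. It had 163, 143 and 144 CPM in WT replicates 3, 4 and 5, and 133, 125 and 147 CPM in ARID1A-KO replicates 3, 4 and 5. ARID1A-KO replicates 3 and 4 were below all WT samples, and ARID1A-KO replicate 5 was above WT replicates 4 and 5. BPTF had a log2 fold change of -0.15 (95% interval -0.33 to 0.03, adjusted p = 0.172, edgeR's quasi-likelihood test). Without WT replicate 4 and ARID1A-KO replicate 5 it was -0.25 (adjusted p = 0.0296, edgeR's quasi-likelihood test).

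CECR2, the bromodomain subunit of CERF, was the least abundant member, with 11.4, 13.1 and 11.4 CPM in WT replicates 3, 4 and 5, and 13.1, 14.0 and 10.4 CPM in ARID1A-KO replicates 3, 4 and 5. ARID1A-KO samples held both the highest and the lowest value, and the log2 fold change was 0.06 (95% interval -0.22 to 0.34, adjusted p = 0.741, edgeR's quasi-likelihood test).

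POLE3 codes for a histone-fold protein that CHRAC shares with DNA polymerase epsilon. It had 119, 130 and 111 CPM in WT replicates 3, 4 and 5, and 128, 120 and 108 CPM in ARID1A-KO replicates 3, 4 and 5. The genotypes overlapped almost fully, and the log2 fold change was -0.01 (95% interval -0.20 to 0.17, adjusted p = 0.928, edgeR's quasi-likelihood test).

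**Figure D3:**
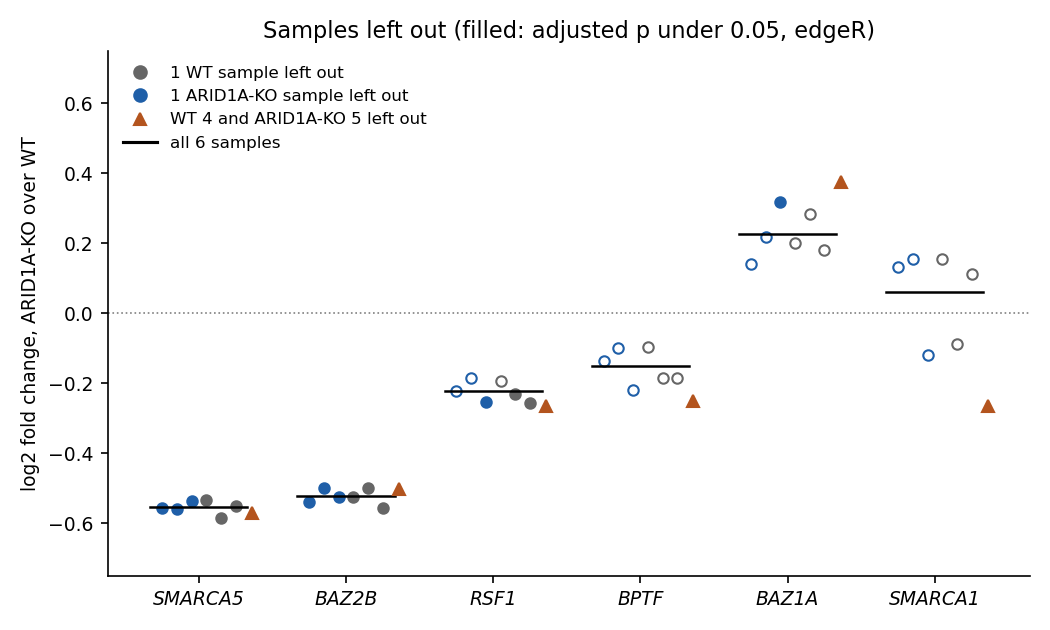
Log2 fold changes of ARID1A-KO over WT (y axis) for 6 members (x axis) with each sample left out in turn (circles), with WT replicate 4 and ARID1A-KO replicate 5 left out together (triangles) and with all 6 samples (lines); filled marks have an adjusted p under 0.05. SMARCA5 and BAZ2B were called in every case shown, RSF1 lost its call in 3 cases, and the triangle of SMARCA1 (-0.27) lies on the other side of 0 from its line (0.06).

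Without WT replicate 4 and ARID1A-KO replicate 5, 6 of the 10 members were called in place of 3, since SMARCA1 and BPTF, both lower, and BAZ1A, higher, joined SMARCA5, BAZ2B and RSF1. In the same fit, 8217 of 19584 genes tested were called (42.0%), 21.7% lower and 20.3% higher, so the share called was larger among all genes too.

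Levels can be compared between genes only per length, and TPM was used for this, which the authors computed over the joined exons of each gene. In WT cells, POLE3 was highest at 151 ± 11.9 TPM, followed by BAZ1B at 121 ± 7.64, SMARCA5 at 63.8 ± 3.25 and BAZ2A at 51.1 ± 0.63 (SD, n = 3 each). SMARCA1 (35.6 ± 6.89), BPTF (32.7 ± 2.83) and BAZ1A (29.7 ± 2.11 TPM) followed, and neighbours in this order overlapped between samples. RSF1 (13.6 ± 0.81), BAZ2B (7.05 ± 0.32) and CECR2 (3.84 ± 0.30 TPM) were lowest, each below the one before it in all 3 samples. RSF1 transcripts thus stood well below those of SMARCA5, BAZ1B and BAZ2A in every sample. The low places of RSF1 and BAZ2B depend on the exon lengths used, 15740 and 20370 bases. By mean CPM in WT, RSF1 (65.3) was above SMARCA1 (44.5), and BAZ2B (43.7) stood farther above CECR2 (12.0) than by TPM.

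In ARID1A-KO cells, POLE3 (149 ± 7.54) and BAZ1B (123 ± 1.53 TPM) kept the first places, but BAZ2A (53.3 ± 1.76) stood above SMARCA5 (43.3 ± 1.03 TPM) in all 3 samples, with no overlap (SD, n = 3 each). In WT, SMARCA5 stood above BAZ2A in all 3 samples. SMARCA5 overlapped in ARID1A-KO cells with SMARCA1 (37.1 ± 8.69 TPM), and the latter with BAZ1A (34.5 ± 3.11) and BPTF (29.3 ± 3.29 TPM). RSF1 (11.6 ± 0.83), BAZ2B (4.88 ± 0.18) and CECR2 (3.98 ± 0.53 TPM) were again lowest, in the same order. In WT, the mean TPM of BAZ2B was 1.84 times that of CECR2, and in ARID1A-KO cells it was 1.23 times.

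**Figure D4:**
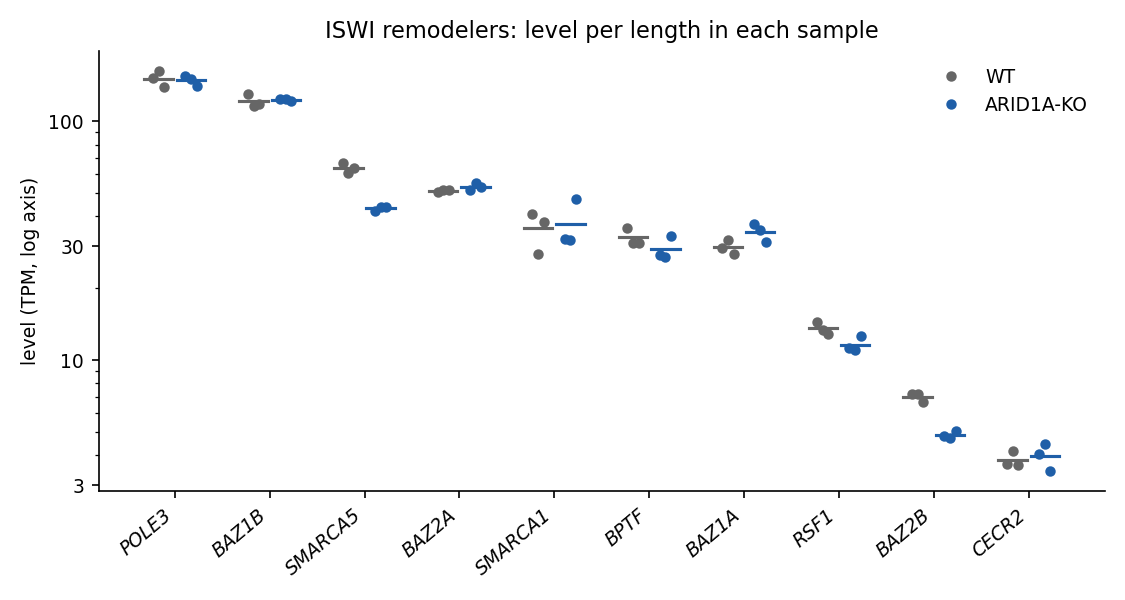
The level of the 10 members (x axis, in the order of the WT means) in TPM on a log axis, with a point for each sample and a line for the mean of 3 WT or 3 ARID1A-KO samples. SMARCA5 is the third highest in WT at 63.8 TPM and drops below BAZ2A in ARID1A-KO cells, where it has 43.3 TPM, and BAZ2B comes close to CECR2 at the low end.

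Ratios within a sample compare paralogs or partners without regard to the library size, and 7 pairs were tested with exact permutation tests, two-sided, for which the smallest p is 0.1. In 3 pairs the genotypes did not overlap, and these are the pairs that hold SMARCA5 or BAZ2B. BAZ2A was 6.99, 7.11 and 7.71 times BAZ2B by TPM in WT replicates 3, 4 and 5, and 10.7, 11.6 and 10.5 times in ARID1A-KO replicates 3, 4 and 5. On the log2 scale of CPM, this ratio was higher in ARID1A-KO cells by 0.59 (exact permutation test, p = 0.1, adjusted p = 0.233 over the 7 pairs).

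SMARCA1 was 0.612, 0.46 and 0.596 times SMARCA5 by TPM in WT replicates 3, 4 and 5, and 0.763, 0.729 and 1.07 times in ARID1A-KO replicates 3, 4 and 5. The log2 ratio was higher by 0.61 (exact permutation test, p = 0.1, adjusted p = 0.233), with ARID1A-KO replicate 5 far above the rest, and by 0.43 without that sample. RSF1 was 0.216, 0.221 and 0.203 times SMARCA5 by TPM in WT and 0.267, 0.252 and 0.286 times in ARID1A-KO replicates 3, 4 and 5, a log2 difference of 0.33 (exact permutation test, p = 0.1, adjusted p = 0.233). Both RSF subunits fell, by 0.22 (RSF1) and 0.55 (SMARCA5) on the log2 scale. The fall of SMARCA5 enters both of these ratios. It was close to the median of its 51 tested neighbours (-0.53), which was -0.40 over the 36 with a mean over 2 CPM.

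In the other 4 pairs the genotypes overlapped. The log2 ratio was higher in ARID1A-KO cells by 0.19 for BAZ1A over BAZ1B (p = 0.2), 0.21 for CECR2 over BPTF (p = 0.4), 0.14 for POLE3 over POLE4 (p = 0.3) and 0.05 for POLE3 over CHRAC1 (p = 1.0), all by the exact permutation test. POLE4 and CHRAC1 code for the histone-fold partners of POLE3 in polymerase epsilon and in CHRAC. Their adjusted p-values over the 7 pairs ranged from 0.35 to 1.0.

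**Figure D5:**
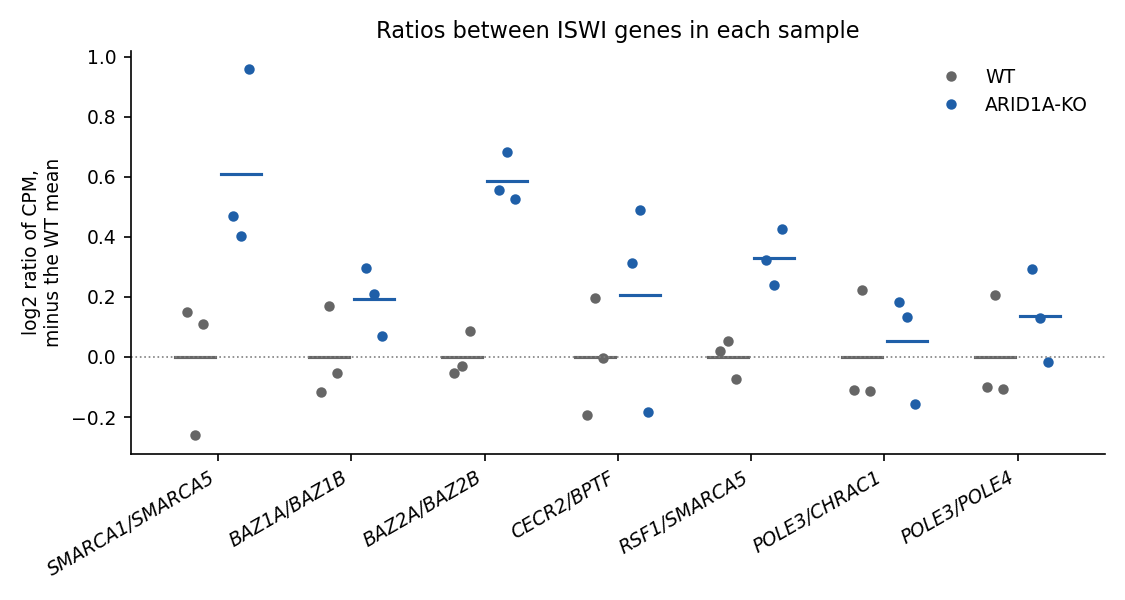
The log2 ratio of CPM of 7 gene pairs (x axis) in each sample, minus the WT mean of the pair (y axis), with points for samples and lines for the mean of 3 WT or 3 ARID1A-KO samples. The genotypes are apart for SMARCA1/SMARCA5, BAZ2A/BAZ2B and RSF1/SMARCA5, with means of 0.61, 0.59 and 0.33 in ARID1A-KO cells, and mixed for the other 4 pairs.

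Of 5 further subunits of ISWI complexes, 2 were called, both lower. RBBP7, a WD-repeat histone-binding subunit of NURF and of histone deacetylase complexes, had 143 ± 6.58 CPM in WT and 102 ± 2.0 CPM in ARID1A-KO cells (SD, n = 3 each), and its log2 fold change was -0.49 (adjusted p = 0.000247, edgeR's quasi-likelihood test). HMGXB4, an HMG-box protein found with NURF, had 144 ± 7.95 CPM in WT and 116 ± 3.78 CPM in ARID1A-KO cells, and its log2 fold change was -0.31 (adjusted p = 0.00473, edgeR's quasi-likelihood test). For both, the genotypes did not overlap, and both were called with each sample left out in turn. In all, the genotypes did not overlap for 4 of the 5 subunits, beside 49.5% of all genes tested. RBBP4, the paralog of RBBP7, had 212 ± 6.59 and 191 ± 6.86 CPM, a log2 fold change of -0.15 that did not pass the test (adjusted p = 0.0664, edgeR's quasi-likelihood test) although its samples did not overlap. CHRAC1 had a log2 fold change of -0.07 (95% interval -0.23 to 0.09). The median of the neighbours within 5 Mb was 0.09 for RBBP4 and 0.21 for CHRAC1. With these taken off as fixed values, both were called, at -0.24 (adjusted p = 0.0131) for RBBP4 and -0.28 (adjusted p = 0.016) for CHRAC1 in edgeR's quasi-likelihood test. C17orf49, a small subunit found with NURF, stayed under 1 CPM in every sample, and it overlaps RNASEK on the same strand, so its log2 fold change of 0.62 (adjusted p = 0.0568, edgeR's quasi-likelihood test) is uncertain.

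Among 6 proteins known with WICH, 1 was called (16.7%, beside 36.2% of all genes tested). This was DDX21, an RNA helicase of the nucleolus, with 418 ± 26.1 CPM in WT and 538 ± 38.4 CPM in ARID1A-KO cells (SD, n = 3 each). DDX21 had a log2 fold change of 0.36 (adjusted p = 0.00533, edgeR's quasi-likelihood test). Within 5 Mb of it, 91 other tested genes had a median of 0.44, and with this taken off DDX21 had -0.08 (adjusted p = 0.456, edgeR's quasi-likelihood test). None of the 3 polymerase epsilon genes POLE, POLE2 and POLE4 passed the test, with log2 fold changes of 0.10, 0.04 and -0.15 (95% intervals -0.05 to 0.25, -0.14 to 0.23 and -0.33 to 0.03).

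Of 7 partners of ISWI complexes in silencing, replication and repair, HDAC1 and CTCF were called, both higher. This was 28.6% of the list, beside 36.2% of all genes tested. HDAC1, the histone deacetylase that NoRC recruits, had 123 ± 3.93 CPM in WT and 148 ± 9.21 CPM in ARID1A-KO cells (SD, n = 3 each), and its log2 fold change was 0.26 (adjusted p = 0.012, edgeR's quasi-likelihood test, and 0.0517 without ARID1A-KO replicate 3). CTCF, the insulator protein whose nucleosome arrays depend on SMARCA5, had 111 ± 6.85 CPM in WT and 128 ± 5.49 CPM in ARID1A-KO cells, and its log2 fold change was 0.20 (adjusted p = 0.0405, edgeR's quasi-likelihood test). The call of CTCF was lost without WT replicate 4, WT replicate 5 or any 1 of the ARID1A-KO replicates, with adjusted p up to 0.117, without WT replicate 4 and ARID1A-KO replicate 5 together (0.159) and with no filter on low counts (0.0507). Within 5 Mb of CTCF, 137 other tested genes had a median of 0.55, and with this taken off its log2 fold change was -0.35 (adjusted p = 0.0037, edgeR's quasi-likelihood test), the opposite direction.

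Of 24 ATPase genes of other SNF2-family remodelers, 1 was higher and 6 were lower. Thus 29.2% were called, beside 3 of the 10 ISWI remodelers and 36.2% of all genes tested. The 3 largest falls were those of SMARCA2 (-1.18) and SMARCA4 (-0.56), the ATPases of the BAF complex in which ARID1A sits, and CHD4 (-0.62), the ATPase of the NuRD complex. CHD5 was the 1 that rose (0.81). Of the 35 tested neighbours of SMARCA2, 33 were negative with a median of -0.84, and with this taken off SMARCA2 had -0.35 (adjusted p = 0.0193, edgeR's quasi-likelihood test). SMARCA5 thus fell by about as much as SMARCA4, which went from 205 ± 14.0 to 139 ± 7.65 CPM (SD, n = 3 each, adjusted p = 0.000313, edgeR's quasi-likelihood test), but SMARCA4 was still called with the median of its 243 neighbours (-0.28) taken off, at -0.28 (adjusted p = 0.0147, edgeR's quasi-likelihood test).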

How the data were processed

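RNA from untreated AID-DIvA cells, 3 WT and 3 ARID1A-KO samples, was sequenced as 100 bp read pairs, with genotypes and replicate numbers taken from the labels. The labels give polyA RNA, whereas the methods name a stranded total RNA kit. Within the Roddy workflow, the authors ran STAR against GRCh37 and deposited raw counts per gene from featureCounts, one for both strands and one for each strand. The gene annotation named is v.29 lift 37, whereas the tables list 57820 genes with identifier versions that appear to be of an older release, so gene models were taken as the tables give them. Versions of STAR and featureCounts were not given in the sources used here. The authors also deposited TPM values, reads per exonic base scaled to the same total in each sample, which served here for levels between genes. Other deposited scalings were not used.

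Low genes were removed from the reverse-stranded counts with filterByExpr and libraries were scaled by TMM. The comparison of genotypes used the quasi-likelihood test of edgeR 4.0.16 under R 4.3.3, with no covariate and Benjamini-Hochberg adjustment over all genes tested. Intervals are 95% intervals of the fit without adjustment. The common biological coefficient of variation was 0.111. Ratios used log2 CPM with a prior count of 2 and exact permutation tests in SciPy 1.17.1. Between replicates, the chi-square per gene was lowest for ARID1A-KO replicates 3 and 4 (8.08) and 19.63 to 37.13 for the other pairs. No sample was thus counted as a second run of the same library. Separate cultures and separate preparations of 1 culture cannot be told apart by this value. The fits were tested on simulated data.

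The members, gene lists and tests were chosen with earlier results of these data known. The genes named are the 10 members, ARID1A, CHRAC1 and POLE4, and the called genes of each list, or the 3 largest rises and 3 largest falls where over 6 were called, and other members of short lists are given for completeness, chosen after their values were seen. Alternatives were counts without regard to strand, RLE normalization, DESeq2 1.42.0, other filters, a stricter threshold, the replicate number as a block, each sample left out, and the median log2 fold change of other genes within 5 Mb taken off. That median entered the fit as a fixed value, without its own uncertainty. Leaving out WT replicate 4 and ARID1A-KO replicate 5 together and the forward-strand check were chosen after seeing the data. Counting error covers reads, not molecules, and is small at these depths.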

Additional observations from a re-analysis of the deposited data

How the results depend on the processing

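At an adjusted p under 0.01, 4414 genes were called in place of 7099, and SMARCA5 and BAZ2B remained of the 3 members, whereas RSF1 did not. With 1 sample left out, 5285 to 7050 genes and 2 to 4 members were called, and without WT replicate 4 and ARID1A-KO replicate 5 together 6 members were called. The replicate numbers did not pair the samples (correlations of -0.177, 0.268 and 0.18 for samples of the same number). For samples of unlike number the correlations ranged from -0.42 to 0.295. With the replicate block, 7477 genes and 4 members were called, and BAZ1A was the one gained (0.22). The neighbour offset left 2 members called, without SMARCA5 (-0.02). Members that were not called changed sign as follows. SMARCA1 ranged from -0.12 to 0.15 with 1 sample left out and was -0.27 without both samples. BAZ1B ranged from -0.0026 to 0.064 and was -0.00061 with the offset, CECR2 ranged from -0.027 to 0.18 and was -0.0040 with the offset, and POLE3 ranged from -0.068 to 0.053, was 0.048 with the offset and 0.11 without both samples. The POLE3/CHRAC1 ratio ranged from -0.012 to 0.17. The causes were not tested. Counts without regard to strand, RLE normalization, DESeq2 and a minimum of 10 counts in every sample changed no call among the members. With 3 samples a genotype the ratios cannot reach a p below 0.1 (0.25 with the block).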
